A study of Homo sapiens with 4 samples.

Results

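The core circadian clock genes are 10 genes chosen by name from the count table: ARNTL (also called BMAL1), CLOCK, PER1, PER2, PER3, CRY1, CRY2, NR1D1, NR1D2 and DBP. All 10 had a row among the 19399 rows used, and all 10 passed the filter on low counts. A549 is an established human lung adenocarcinoma line. A knockdown of NUPR1, a small stress-induced chromatin protein that the labels call p8, was set against cells labelled Control. The labels name neither the knockdown agent nor the control agent, nor any time of collection. Polyadenylated RNA was sequenced as 4 libraries, with a single-end and a paired-end library per group, and each group has 1 column of values in the deposited tables. No comparison therefore had a replicate and none was tested. Levels called knockdown and control below are those of these columns.

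The circadian clock is a transcriptional feedback loop that runs in most cells. ARNTL and CLOCK pair and activate genes that carry an E-box, among them the PER and CRY genes, whose proteins return to the nucleus and repress that pair. A second loop runs through NR1D1 and NR1D2 (REV-ERB alpha and beta), which repress ARNTL, and DBP is an activator of clock output that the same pair drives. In cultured cells the loop is set by serum, glucocorticoids, cyclic AMP and temperature, and PER1 responds to several of these within a short time. PER1, NR1D1 and DBP are common readouts of the stage of the cycle.

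Reads used numbered 16635336 after knockdown and 20289107 in controls. Each level below is a CPM value (reads scaled to a common library total by TMM) followed by its 95% Poisson interval, and each ratio is log2 of knockdown over control, followed by its 95% exact interval. These intervals cover counting error only and do not hold the spread between cultures. NUPR1 itself had 71 reads after knockdown, against 197 reads in controls, a log2 ratio of -1.21 (-1.63 to -0.81). Of 6 epithelial markers, the keratins KRT8 and KRT18 had the most reads, with 175985 and 153316 reads after knockdown, against 176361 and 162201 in controls. Among the other 4, KRT19 had 22 reads after knockdown and 46 in controls, EPCAM had 68 after knockdown and 84 in controls, KRT7 had a log2 ratio of -0.31 and CDH1, the 1 marker past 1.5-fold among those from 5 CPM, 0.73. Of 8 alveolar type II markers none exceeded 475 reads after knockdown or 504 in controls. SFTPC, the marker that defines this cell type, had 33 reads after knockdown and 37 in controls. This surfactant transcript was thus present at a trace level. The 12 markers of blood, stromal and endothelial cells summed to 5.89 CPM after knockdown and 3.93 CPM in controls, with single markers between 0 and 27 reads after knockdown and between 2 and 26 in controls. PECAM1 was the marker at 0, after knockdown.

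The upstream sequences of 5 clock genes are shown, and each holds a match to an element of the kind through which the loop acts. CLOCK, CRY2 and PER3 also held a match and are not shown, so the match alone did not pick these 5. Of the 5 genes 4 differed between the columns beyond counting error, while NR1D2 is the paralog of NR1D1 that did not. Of all genes of at least 1 CPM, 25.1% had intervals above equal levels and 24.5% below. A set picked in this way cannot link a match to a difference. Whether the matches act in these cells was not tested. They come from RefSeq on GRCh38.p14, which is not the build of the tables, were matched by gene symbol, and are written 5′ to 3′ along the gene. All 10 clock genes matched, with 15 windows of 250 bases before a transcript start. Capitals mark the E-box CACGTG, its variant CACGTT, the D-box TTATGTAA and the ROR element core TGGGTCA, each on either strand. Stretches that an annotated exon covers were left out, and for CRY1 a stretch of 30 bases around the match is shown.
NR1D1 (chr17:40100726-40100839, - strand): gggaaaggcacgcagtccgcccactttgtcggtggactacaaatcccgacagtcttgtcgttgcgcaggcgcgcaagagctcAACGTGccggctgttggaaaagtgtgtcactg
PER1 (chr17:8152436-8152654, - strand): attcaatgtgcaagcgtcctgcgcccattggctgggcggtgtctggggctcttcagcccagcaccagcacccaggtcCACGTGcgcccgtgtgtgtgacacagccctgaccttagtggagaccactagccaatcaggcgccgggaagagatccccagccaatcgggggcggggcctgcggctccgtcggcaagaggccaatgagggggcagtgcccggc
PER2 (chr2:238288611-238288860, - strand): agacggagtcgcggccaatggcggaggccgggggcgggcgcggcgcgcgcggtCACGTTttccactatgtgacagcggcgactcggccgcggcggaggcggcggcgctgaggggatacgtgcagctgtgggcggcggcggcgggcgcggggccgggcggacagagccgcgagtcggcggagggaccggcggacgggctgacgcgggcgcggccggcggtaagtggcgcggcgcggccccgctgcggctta
CRY1 (chr12:107093621-107093650, - strand): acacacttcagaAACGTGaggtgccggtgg
NR1D2 (chr3:23945871-23946120, + strand): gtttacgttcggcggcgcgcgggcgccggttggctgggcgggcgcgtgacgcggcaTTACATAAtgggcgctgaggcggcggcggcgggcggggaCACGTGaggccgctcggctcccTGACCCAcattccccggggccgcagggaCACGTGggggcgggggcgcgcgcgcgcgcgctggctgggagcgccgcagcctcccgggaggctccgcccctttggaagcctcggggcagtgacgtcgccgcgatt
PER1 held the E-box CACGTG, its first base 173 bases before the transcript start, and NR1D2 held it in 2 places, 155 and 105 bases before one of its starts. This E-box was present in 6.34% of all 35116 RefSeq windows of the same length. The variant CACGTT, present in 4.55% of all windows, was found in NR1D1, PER2, CRY1, CRY2 and CLOCK. The D-box TTATGTAA, in 0.834% of all windows, was found in NR1D2 and PER3, and TTACGTAA, in 0.105%, in none of the 15 windows. Of the ROR element cores, TAGGTCA (1.61% of windows) was found in CRY2 and TGGGTCA (3.27%) in NR1D2 and CLOCK. The cyclic AMP response element TGACGTCA, in 1.65% of all windows, matched none of the 15. ARNTL, which was also lower after knockdown beyond counting error, and DBP held none of these motifs in their windows. Sequence outside the windows was not searched, so elements elsewhere in these genes are not covered. Both strands were searched and no 2 matches overlapped. NR1D1, which was lower after knockdown, and PER2 and CRY1, which were higher, all held the variant CACGTT.

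The clock genes did not differ in 1 direction. NR1D1, PER1, ARNTL and CRY2 were lower after knockdown, PER2 and CRY1 were higher, and CLOCK, PER3, NR1D2 and DBP had intervals that held equal levels. NR1D1, at 2.08-fold lower, was the 1 gene of the 10 past 1.5-fold. Its mean of 4.49 CPM is under the 5 CPM from which a gene is counted as different by fold here. Of genes with a mean from 1 to under 5 CPM, 19.3% were at least 1.5-fold lower. In these bulk samples fewer cells with a transcript and less of it per cell cannot be told apart. Ratios of the other clock genes ran from 1.44-fold lower for PER1 to 1.30-fold higher for PER2.

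**Figure D1:**
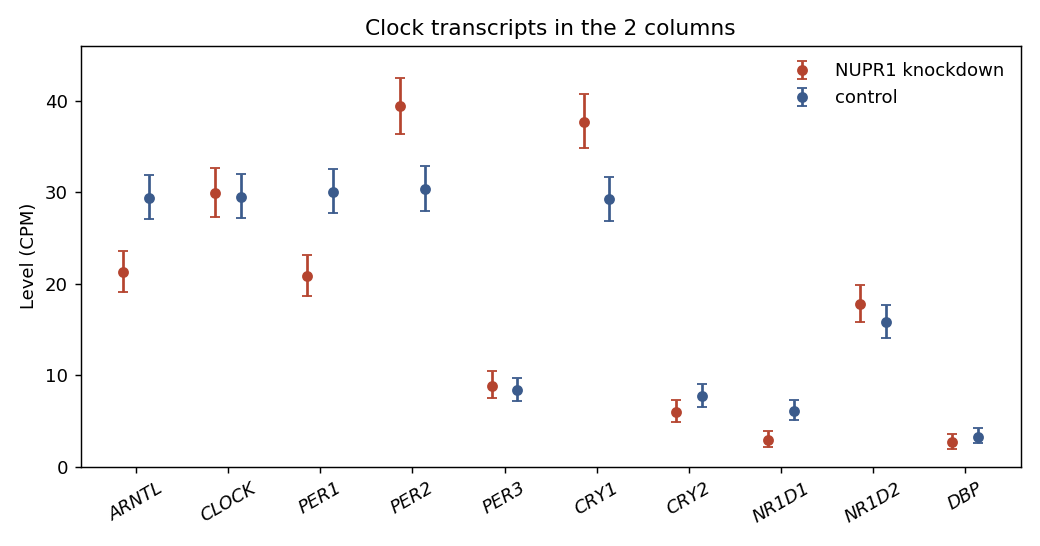
Level of each clock transcript in CPM (y axis, linear), with NUPR1 knockdown to the left of control; points are the deposited column of each group and bars are 95% Poisson intervals that cover counting error only. The pairs of bars lie apart for ARNTL, PER1, PER2, CRY1 and NR1D1, and in controls ARNTL, CLOCK, PER1, PER2 and CRY1 sit within 29.3 to 30.4 CPM.

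ARNTL, the activator whose loss stops the clock in mice, had 357 reads after knockdown, against 591 reads in controls. This is 21.3 CPM (19.1–23.6) after knockdown and 29.4 CPM (27.1–31.9) in controls, with a log2 ratio of -0.47 (-0.66 to -0.28). Its partner CLOCK, a histone acetyltransferase, had 502 reads, or 29.9 CPM (27.3–32.6), after knockdown and 593 reads, or 29.5 CPM (27.2–32), in controls. The activators thus parted, with ARNTL 1.38-fold lower and CLOCK at a log2 ratio of 0.02 (-0.16 to 0.19). There were 0.711 ARNTL reads per CLOCK read after knockdown, against 0.997 in controls. A ratio of reads within a column does not depend on the scaling between columns, and this one differed by a log2 value of -0.49 (-0.75 to -0.23).

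Among the repressors, PER1 stood apart from its paralogs. PER1, the PER gene that serum and hormones induce most quickly, had 349 reads after knockdown, against 603 reads in controls. Its level was 20.8 CPM (18.7–23.1) after knockdown and 30 CPM (27.7–32.5) in controls, with a log2 ratio of -0.53 (-0.72 to -0.34). PER2, a scaffold of the repressor complex, had 661 reads, or 39.4 CPM (36.4–42.5), after knockdown and 610 reads, or 30.4 CPM (28.0–32.9), in controls. PER2 was thus higher, by a log2 ratio of 0.37 (0.21–0.54), where PER1 was lower. PER3, the least essential of the PER genes in mice, had 148 reads, or 8.81 CPM (7.45–10.4), after knockdown and 168 reads, or 8.36 CPM (7.14–9.72), in controls, and its log2 ratio of 0.08 (-0.25 to 0.40) held equal levels.

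There were 0.528 PER1 reads per PER2 read after knockdown, against 0.989 in controls, a log2 difference of -0.90 (-1.16 to -0.65). PER1 reads per PER3 read numbered 2.36 after knockdown and 3.59 in controls, a log2 difference of -0.61 (-0.99 to -0.22). The ratio of PER3 to PER2 was 0.224 after knockdown and 0.275 in controls, and its log2 difference of -0.30 (-0.67 to 0.07) was within counting error. PER1 reads per ARNTL read were 0.978 after knockdown and 1.02 in controls, and the log2 difference of -0.06 (-0.34 to 0.21) held equal proportions.

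The cryptochromes, which are the main repressors of the ARNTL and CLOCK pair, also divided. CRY1 had 633 reads after knockdown, against 588 reads in controls. This is 37.7 CPM (34.8–40.7) after knockdown and 29.3 CPM (26.9–31.7) in controls, with a log2 ratio of 0.37 (0.20–0.53). CRY2 had 100 reads, or 5.95 CPM (4.84–7.24), after knockdown and 155 reads, or 7.71 CPM (6.55–9.03), in controls. Its log2 ratio was -0.37, with an interval from -0.75 to just under equal levels (-0.001), and when the columns were scaled by their totals alone the interval reached 0.026. CRY2 is therefore at the limit of counting error. There were 0.158 CRY2 reads per CRY1 read after knockdown, against 0.264 in controls, a log2 difference of -0.74 (-1.15 to -0.33). There were 1.04 PER2 reads per CRY1 read in both columns, with a log2 difference of 0.01 (-0.22 to 0.24).

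Of the paralog pairs compared here, the REV-ERB genes had the largest log2 difference, but its interval overlapped those of PER1 to PER2 and CRY2 to CRY1. NR1D1, a heme-binding nuclear receptor that represses ARNTL, had 49 reads after knockdown, against 122 reads in controls. Its level was 2.92 CPM (2.16–3.86) after knockdown and 6.07 CPM (5.04–7.25) in controls, with a log2 ratio of -1.06 (-1.57 to -0.57). NR1D2, which overlaps with NR1D1 in function, had 299 reads, or 17.8 CPM (15.8–19.9), after knockdown and 318 reads, or 15.8 CPM (14.1–17.7), in controls. The log2 ratio of NR1D2 was 0.17 (-0.06 to 0.40), so its intervals overlapped where those of NR1D1 lay apart. NR1D1 reads per NR1D2 read were 0.164 after knockdown and 0.384 in controls, a log2 difference of -1.23 (-1.79 to -0.68). NR1D1 reads per read of ARNTL, the gene it represses, were 0.137 after knockdown and 0.206 in controls, a log2 difference of -0.59 (-1.13 to -0.06).

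Without a stated strand setting, reads in the shared 3′ ends of NR1D1 and THRA, a thyroid hormone receptor gene on the opposite strand, cannot be told apart. The annotated overlap spans 1081 bases, where the deposited length of NR1D1 is 2775 bases. How many of the reads counted for NR1D1 lie there was not tested. THRA had 60.2 CPM (56.5–64.0) after knockdown and 63.0 CPM (59.6–66.6) in controls, a log2 ratio of -0.07 (-0.19 to 0.05). Annotated genes on the opposite strand also overlap NR1D2 (NKIRAS1, log2 ratio -0.05), CLOCK (TMEM165, 0.14), DBP (SPHK2, 0.46) and PER3 (UTS2, with 2 reads after knockdown and 1 in controls). Annotated genes without a row that overlap ARNTL, PER1, PER2 and CRY1 were not analysed here. Among these overlapping genes SPHK2 had the interval farthest from equal levels, at 0.16 to 0.77.

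DBP, a PAR bZIP activator of the clock's output genes, was the lowest of the 10 in CPM. It had 45 reads after knockdown, against 66 reads in controls, which is 2.68 CPM (1.95–3.59) after knockdown and 3.28 CPM (2.54–4.18) in controls. Its log2 ratio of -0.29 (-0.87 to 0.27) held equal levels, but the interval also held ratios as low as that of PER1. At this depth a difference of that size in DBP was not detectable. DBP and NR1D1, which the same activators drive, had 0.918 DBP reads per NR1D1 read after knockdown and 0.541 in controls, a log2 difference of 0.76 (-0.01 to 1.53).

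**Figure D2:**
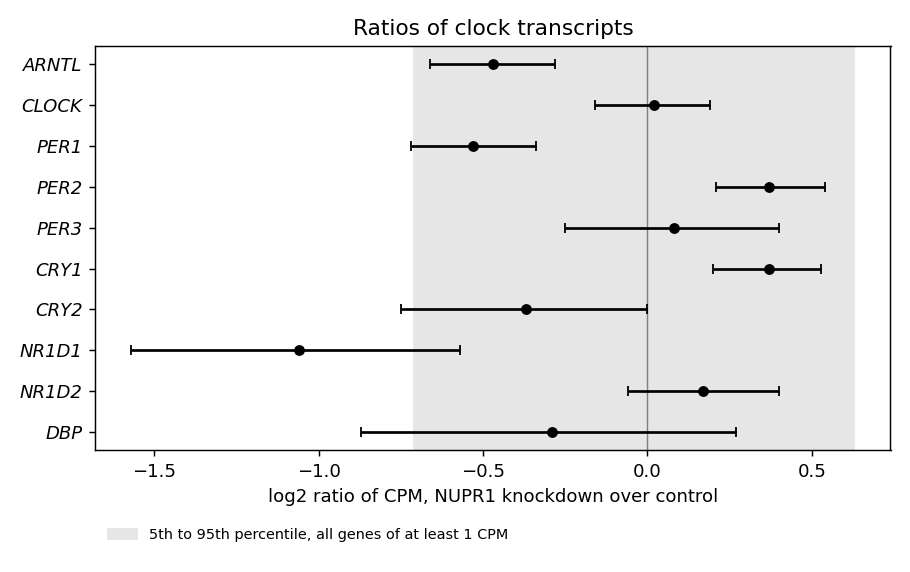
Log2 ratio of NUPR1 knockdown over control (x axis) for each clock gene (rows), with 95% exact intervals that cover counting error only; the grey band is the range from the 5th to the 95th percentile of all 13094 genes with a mean of at least 1 CPM (-0.71 to 0.63). NR1D1, at -1.06, is the 1 point outside the band.

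Set against all genes, these ratios lay between the 5th and the 95th percentile, except that of NR1D1. Of the 8 clock genes with a mean of at least 5 CPM, 0 were at least 1.5-fold higher, beside 3.72% of all 10689 such genes, and 0 were at least 1.5-fold lower, beside 4.44%. At 2-fold the count was 0 of 8 in each direction, beside 0.992% of genes higher and 1.13% lower. NR1D1 and DBP have lower means. Of all 10 clock genes, which have a mean of at least 1 CPM, 1 was at least 1.5-fold lower, beside 7.16% of 13094 genes, and 0 were at least 1.5-fold higher, beside 5.7%. That gene, NR1D1, was also at least 2-fold lower, as were 2.33% of the 13094 genes, while 0 clock genes and 1.98% of genes were at least 2-fold higher.

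Low counts spread more widely. Of 2405 genes with a mean from 1 to under 5 CPM, the range of NR1D1 and DBP, 19.3% were at least 1.5-fold lower and 14.5% higher, and 7.65% were at least 2-fold lower and 6.36% higher. NR1D1 was 1 of these 2 clock genes past both thresholds, in the lower direction. Its interval also lay below equal levels, as did 15.9% of the intervals in this range, where 13% lay above. Of all 13094 genes, 2.05% had a lower ratio than NR1D1, 8.39% a lower one than PER1 and 10.3% a lower one than ARNTL. PER2 and CRY1 were exceeded by 12.2% and 12.7% of genes.

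An interval that excludes equal levels was common in these columns. It lay above equal levels for 2 of 10 clock genes, beside 25.1% of all genes of at least 1 CPM, and below for 4 of 10, beside 24.5%. From 5 CPM the counts were 2 of 8 above, beside 27.9% of genes, and 3 of 8 below, beside 26.5%. With so few genes, nothing particular to the clock can be read from these counts. The median log2 ratio of the 10 clock genes was -0.14, beside 0.00 over the 14175 genes that passed the filter, and 5 of the 10 were higher and 5 lower. This median turned to 0.05 when both columns had to reach 5 CPM, which leaves NR1D1 and DBP out. Whether any of these differences would recur in further cultures was not tested.

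**Figure D3:**
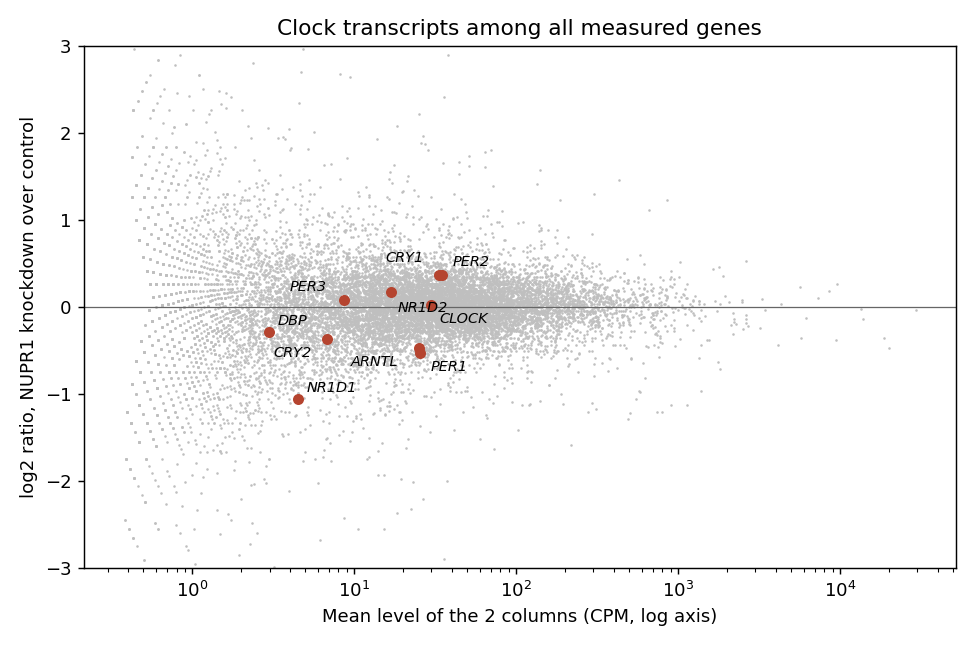
Log2 ratio of NUPR1 knockdown over control (y axis) against the mean level of the columns in CPM (x axis, log scale) for all genes that passed the filter (grey) and the 10 clock genes (red, named); 30 genes lie beyond the y axis limits of -3 and 3. The clock genes lie inside the cloud, with NR1D1 at its lower side at a mean of 4.49 CPM.

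Levels between genes were compared per length, in the deposited RPKM. In the knockdown column CRY1 was highest at 11.71 RPKM (10.8–12.7), followed by ARNTL at 6.42 (5.77–7.12) and PER2 at 5.66 (5.24–6.11). In the control column CRY1 had 8.91 RPKM (8.20–9.66) and ARNTL 8.71 (8.02–9.44), which did not differ beyond counting error, and PER1 followed at 5.15 RPKM (4.75–5.58). The order of the leading genes thus differed, with CRY1 alone at the top and PER2 above PER1 after knockdown, and PER1 above PER2, at 4.27 RPKM (3.94–4.62), in controls.

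NR1D2 and CLOCK lay in the middle of the order in both columns. In the knockdown column PER1 had 3.64 RPKM, NR1D2 3.31 and CLOCK 2.75, and the intervals of neighbours in this order overlapped. In the control column NR1D2 had 2.89 RPKM and CLOCK 2.66, also with overlapping intervals, and each gene from NR1D2 down to PER3 overlapped its neighbour. At the low end PER3 had 1.37 RPKM after knockdown and 1.27 in controls, CRY2 had 1.35 after knockdown and 1.72 in controls, and NR1D1 had 1.08 after knockdown and 2.19 in controls. After knockdown the intervals of these 3 overlapped in sequence, and they lay apart from those of CLOCK above and DBP below. NR1D1 was next to last after knockdown and seventh in controls.

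DBP was last in both columns, at 0.46 RPKM (0.336–0.616) after knockdown and 0.55 RPKM (0.425–0.700) in controls, but its place rests on the deposited length. That length, 5958 bases, is 2.67 times the longest coding transcript of DBP in GENCODE release 29 (2229 bases). For the other 9 genes the deposited length was 1.00 to 1.24 times the longest coding transcript. With the transcript lengths DBP would have 1.20 reads per kilobase, at the same scaling, after knockdown and 1.47 in controls, NR1D1 would have 1.05 after knockdown and 2.19 in controls, and PER3 would have 1.39 after knockdown and 1.32 in controls. DBP would then lie above NR1D1 after knockdown and above PER3 in controls. The top of the control order rests on the length as well, since ARNTL would have 10.5 and CRY1 8.96 there. After knockdown CRY1 would still lead, at 11.5 beside 7.62 for ARNTL. The ratios between columns do not depend on the length.

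**Figure D4:**
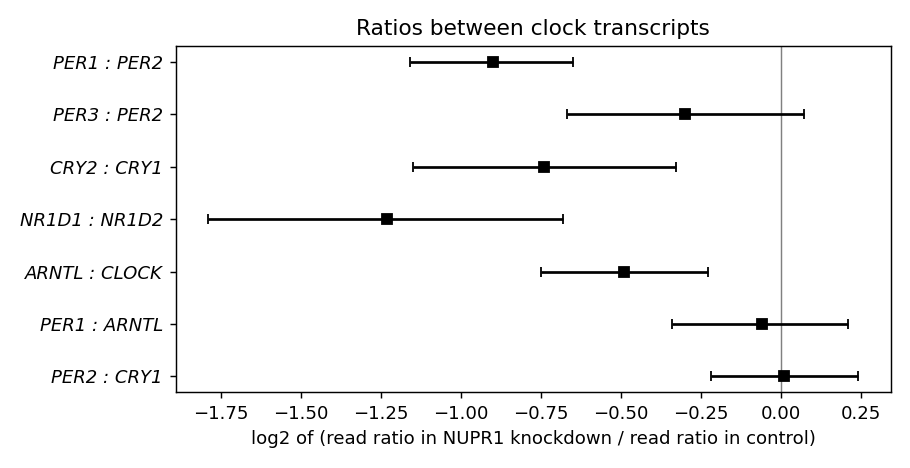
Change in the ratio of reads between pairs of clock genes, as the log2 of the ratio in NUPR1 knockdown over that in control (x axis), with 95% exact intervals that cover counting error only. PER1 to PER2, CRY2 to CRY1, NR1D1 to NR1D2 and ARNTL to CLOCK lie below 0, while PER1 to ARNTL and PER2 to CRY1 lie at -0.06 and 0.01.

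Of 12 listed paralogs and side-loop genes of the clock 9 passed the filter, 2 of them higher and 7 lower, with a median log2 ratio of -0.22, where 7092 of all 14175 genes were higher and their median was 0.00. BHLHE41, among the lower genes, passed only through its reads in controls. Of the 6 with a mean of at least 5 CPM, 0 were past 1.5-fold, beside 3.72% of all genes higher and 4.44% lower. ARNTL2, the paralog of ARNTL, had 24.4 CPM (22.1–26.9) after knockdown and 33.7 CPM (31.2–36.4) in controls, a log2 ratio of -0.47 (-0.65 to -0.29) that equals that of ARNTL. NPAS2, the paralog of CLOCK, had 91.9 CPM (87.3–96.6) after knockdown and 91.8 CPM (87.6–96.0) in controls and, like CLOCK, did not differ beyond counting error. RORA, the nuclear receptor that activates ARNTL at the elements where the REV-ERB proteins repress it, had 5.60 CPM (4.52–6.85) after knockdown and 7.91 CPM (6.73–9.24) in controls, with a log2 ratio of -0.50 (-0.88 to -0.12).

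BHLHE40 (DEC1), an E-box repressor that the clock and many stimuli induce, had 120 CPM (115–125) after knockdown, against 160 CPM (154–166) in controls, a log2 ratio of -0.41 (-0.49 to -0.33). NFIL3, which represses at D-boxes, had 0.11 (-0.08 to 0.30), and TEF and HLF, the PAR bZIP relatives of DBP, had -0.15 (-0.80 to 0.50) and -0.16 (-0.65 to 0.32). TIMELESS, which in mammals acts mainly in DNA replication, had -0.22 (-0.29 to -0.15). RORB and C1orf51 (CIART) were among the genes that did not pass the filter.

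The genes that modify clock proteins were balanced, with 15 of 30 higher and 15 lower and a median log2 ratio of 0.00. FBXL21, among the lower genes, passed the filter only through its reads in controls. Of the 28 with a mean of at least 5 CPM, 1 was at least 1.5-fold higher and 0 lower, beside 3.72% and 4.44% of all genes, so the count is near that background. The 1 gene was RBX1, the RING subunit of cullin ligases, with 26.4 CPM (24–29) after knockdown and 16.9 CPM (15.2–18.8) in controls, a log2 ratio of 0.64 (0.43–0.85). HUWE1, a ligase that acts on NR1D1 protein among many others, had -0.35 (-0.40 to -0.30). The kinases that mark PER proteins, CSNK1D and CSNK1E, had -0.15 (-0.23 to -0.06) and -0.12 (-0.25 to 0.00).

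The 22 chromatin cofactors of the clock divided into 10 higher and 12 lower, and their median log2 ratio was -0.01. MTA2, a subunit of the NuRD complex, had -0.50 (-0.60 to -0.41). NCOR1, the corepressor through which the REV-ERB proteins act, had -0.40 (-0.46 to -0.34), and its partner HDAC3 had -0.22 (-0.38 to -0.06).

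Of 13 genes known as clock outputs 12 passed the filter, 5 of them higher and 7 lower, with a median log2 ratio of -0.09, and 0 of the 8 with a mean of at least 5 CPM were past 1.5-fold, beside 3.72% of all genes higher and 4.44% lower. NAMPT, the enzyme of NAD salvage whose gene carries E-boxes, had 286 CPM (278–294) after knockdown and 218 CPM (212–224) in controls, a log2 ratio of 0.39 (0.33–0.45). POR, the electron donor of cytochromes P450, had 0.39 (0.27–0.50). WEE1, a mitotic kinase, had 0.33 (0.14–0.52). In the other direction, KLF9 had -0.36 (-0.60 to -0.11), KLF10 -0.30 (-0.42 to -0.18) and CDKN1A -0.18 (-0.27 to -0.10).

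Signals that set the clock in culture were described through their target genes. Of 13 genes induced by CREB and serum that passed the filter 11 were lower and 2 higher, with a median log2 ratio of -0.56, where 7092 of all 14175 genes were higher. Of the 9 with a mean of at least 5 CPM, 4 were at least 1.5-fold lower and 0 higher, where 4.44% and 3.72% of all genes were. JUNB, an AP-1 subunit, had 11.1 CPM (9.54–12.8) after knockdown and 31.7 CPM (29.3–34.3) in controls, with a log2 ratio of -1.52 (-1.76 to -1.28). NR4A1 and NR4A3, orphan nuclear receptors, had -1.05 and -1.11, and SRF, the serum response factor, -0.68 (-0.85 to -0.51). The 2 higher genes were ATF3, at 0.51 (0.27–0.76), and FOS, at 0.39 (-0.25 to 1.04). Lower genes whose intervals held equal levels included EGR1, at -0.56 (-1.40 to 0.25), and CREM, at -0.13 (-0.30 to 0.04). PER1 and NR1D1 were lower alongside this list, and its part in their ratios was not tested.

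Glucocorticoid-induced genes had a median of -0.41, with 10 of 14 lower and 4 higher where 7092 of all 14175 genes were higher, but they divided among themselves. Of 12 with a mean of at least 5 CPM, 2 were at least 1.5-fold lower and 2 higher, beside 4.44% and 3.72% of all genes. ANGPTL4, an inhibitor of lipoprotein lipase, and the kinase gene SGK1 had log2 ratios of -2.36 (-2.68 to -2.06) and -1.18 (-1.46 to -0.91), whereas BIRC3 and CEBPD had 0.63 (0.54–0.72) and 0.61 (0.46–0.76). TSC22D3 (GILZ), which glucocorticoids and the clock both induce, had 328 reads after knockdown and 402 in controls, a log2 ratio of -0.03 (-0.25 to 0.18).

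Temperature-responsive genes were described by a cold list of 2 genes and a heat list of 9. The cold-inducible RNA-binding protein genes CIRBP and RBM3, which in mouse cells sustain the amplitude of the clock, had intervals above equal levels, as did 27.9% of all genes from 5 CPM, and neither was past 1.5-fold. CIRBP had 70.7 CPM (66.8–74.9) after knockdown, against 49.6 CPM (46.6–52.8) in controls, a log2 ratio of 0.51 (0.39–0.63). RBM3 had 232 CPM (225–239) after knockdown and 170 CPM (165–176) in controls, with a log2 ratio of 0.45 (0.38–0.51). The 9 heat-inducible genes split into 4 higher and 5 lower, and their median was -0.08. HSPB1, a small heat shock protein, was the 1 gene of these 9 past 1.5-fold, beside 4.44% of all genes lower, with a log2 ratio of -0.74 (-0.80 to -0.68), and the chaperonin HSPD1 had -0.44 (-0.47 to -0.40). HSPA1A was not analysed here. Since each group is 1 column with no stated time of collection or of medium change, the knockdown and any difference in culture between the groups cannot be told apart.

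**Figure D5:**
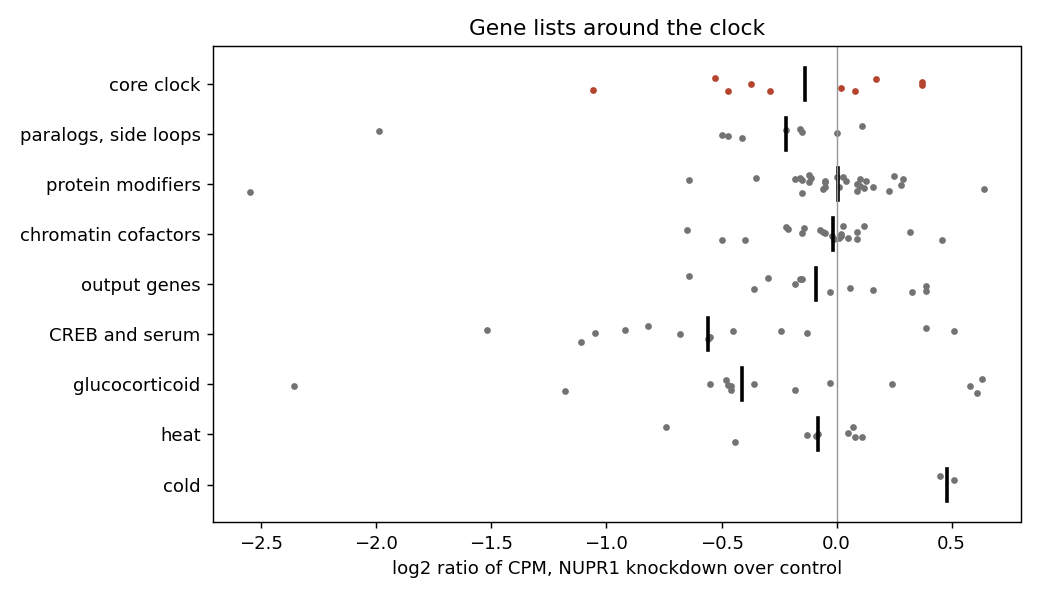
Log2 ratio of NUPR1 knockdown over control (x axis) for every gene that passed the filter in each list (rows); points are genes, red for the core clock, vertical offsets within a row are random, and black bars are medians. The lists of CREB and serum targets and of glucocorticoid targets have the lowest medians, -0.56 and -0.41, and the modifiers and cofactors of the clock centre near 0.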

How the data were processed

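RNA-sequencing of polyadenylated RNA from A549 cells is given as read counts per gene and as RPKM, both deposited by the authors with 1 column per group, for 4 libraries (2 per group, 1 single-end and 1 paired-end each). TopHat2 2.0.10, edgeR 3.2.2 and hg19 are named per the submitters' processing notes, without role or order. Counter, annotation, strand setting and how layouts were merged were not given in the sources used here. Each can move a count. The deposited RPKM equals the deposited count over the deposited gene length and a constant per column, within 1% for 100% of 11150 genes above 1 RPKM. The knockdown column's name differs by 1 letter from its library titles and was matched by its shared start. There were 0 further value columns.

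Of 19402 rows 26 with date-mangled symbols were restored from their descriptions, and 3 broken rows were left out (0.0872% of knockdown and 0.0509% of control reads). TMM factors (1.01 and 0.991) and filterByExpr (minimum count 10, total 15) came from edgeR 4.0.16 in R 4.3.3, and intervals from scipy 1.17.1 in Python 3.11.15. A gene could meet the minimum count through 1 column alone, so genes near that minimum can enter a list through their higher column. The planned quasi-likelihood test on 4 libraries had 0 residual degrees of freedom with these columns and was dropped. A gene is counted as different by fold, with a mean of at least 5 CPM. At this depth 1 read is 0.0595 CPM in the knockdown and 0.0498 CPM in controls. Reads carry no molecular identifiers, and if mates of a pair were counted separately the intervals are too narrow. The intervals were checked on simulated counts that carried counting error only, so the check does not bear on the spread between cultures.

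The members and lists were chosen with earlier results of these data known. Named by rule were the 10 members, NUPR1, genes that overlap a member, and in each list the genes of at least 5 CPM past 1.5-fold or, if under 2, the 2 with the largest ratio. Some genes that this rule takes are left unreported. The remaining listed genes, and the pairs of members, were chosen after their values were seen. Gene overlaps and transcript lengths came from GENCODE release 29.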

Additional observations from a re-analysis of the deposited data

How the results depend on the processing

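No paired analysis was possible because each group has a single column of values. Leaving out each library and the DESeq2 and quasi-likelihood tests could not be run either. Between all alternatives run, the log2 ratio of NR1D1 ranged from -1.07 to -0.62, PER1 from -0.55 to -0.41, ARNTL from -0.48 to -0.39, PER2 from 0.34 to 0.40 and CRY1 from 0.35 to 0.39, and the value nearest 0 for NR1D1, PER1 and CRY2 (-0.21) came with RPKM plus 1. With 5 CPM as the minimum of each column NR1D1 and DBP had no value, the median of the clock genes turned to 0.05 and that of the output genes to 0.01. With RPKM plus 1 the medians were -0.03 for the clock genes, -0.41 for the CREB and serum list and -0.20 for the glucocorticoid list, and 229 of all genes were at least 1.5-fold lower in place of 475. With a minimum mean of 1 CPM, 1 clock gene was at least 1.5-fold lower in place of 0, with 747 genes higher and 938 lower over all genes in place of 398 and 475. At 2-fold the counts over all genes were 106 higher and 121 lower. The interval of CRY2 held equal levels in 2 of 6 settings (scaling by totals, and controls thinned to an equal total), and CLOCK, PER3, NR1D2 and DBP held equal levels in all 6. Depth limits NR1D1, CRY2 and DBP most, with 49, 100 and 45 reads after knockdown and 122, 155 and 66 in controls.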

Other observations

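Besides the genes described above, a pair of low clock-related genes was singled out after their values were seen. Both passed the filter on low counts only through their reads in controls. A lower ratio after knockdown was thus in part built into their being kept. BHLHE41 (DEC2), the paralog of BHLHE40 and an E-box repressor, had 4 reads after knockdown, against 19 reads in controls, a log2 ratio of -1.99 (-4.00 to -0.40). FBXL21, an F-box protein that in mice slows the degradation of cryptochromes, had 3 reads after knockdown, against 21 reads in controls, a log2 ratio of -2.55 (-4.94 to -0.80). Both levels are near 1 CPM or below it, where the spread between libraries was not measured. EZH2, a histone methyltransferase that binds the clock repressor complex, had 80.1 CPM (75.9–84.5) after knockdown, against 58.4 CPM (55.1–61.9) in controls, a log2 ratio of 0.46 (0.34–0.57), and was named outside the rule as well.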
